A study of Mus musculus with 16 samples.

Results

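The levels of 10 genes of the nuclear lamina, the cell cortex and the plasma membrane were followed in regulatory T cells (Tregs) of mouse muscle and spleen and in whole muscle: Lmna, Anxa1, Anxa2, S100a4, S100a6, S100a10, S100a11, Ahnak, Myadm and Lgals3. They are 10 of the 52997 gene symbols in the count table, and all 10 passed the filter on low counts in both the Treg libraries and the whole muscle libraries. They had been picked because their levels were higher in muscle Tregs than in spleen Tregs and, to a lesser degree, higher in the spleen of transgenic mice than in the spleen of wild-type mice. Values from those comparisons are therefore given below as descriptions with no test, and tests on the 10 genes are confined to 3 comparisons that did not choose them.

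Polyadenylated RNA was sequenced from mTreg24 TCR-tg+ mice (Tg), whose T cells carry a transgenic T cell receptor of muscle Treg origin, and from TCR-tg- mice (WT), all on the B6 background with a Foxp3 GFP reporter and 6 to 8 weeks old. Tregs were sorted 3 days after the muscle toxin Ctx from WT muscle, Tg muscle, WT spleen and Tg spleen, and also from the spleen of uninjured Tg mice, with 2 libraries in each of these 5 groups. That the WT spleen came from injured mice is stated in the series' design text and not in the sample names. Tg Tregs were sorted as Vβ8+ cells, whereas WT Tregs were taken as a whole, so genotype and gate cannot be told apart. Whole muscle was taken 8 days after injury in 3 WT and 3 Tg libraries. Total counts per library ran from 1986700 to 9116800 in Tregs and from 5095999 to 7075420 in whole muscle. Nothing in the labels says whether the libraries of a group came from separate animals, so the p-values rest on library-to-library spread that may be technical only. Foxp3, which defines Tregs, ran from 1880 to 2314 CPM (counts scaled to a common library size) in the muscle Treg libraries and from 1054 to 1352 CPM in the spleen Treg libraries.

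Lamin A and lamin C, the products of Lmna, form a meshwork under the inner nuclear membrane that stiffens the nucleus, and T cells raise them on activation. Annexins bind acidic membrane phospholipids when calcium rises, and small calcium-binding S100 proteins dock onto them. Annexin A2 and S100A10 join into a heterotetramer at the inner face of the plasma membrane, where the giant scaffold AHNAK is a partner, and S100A11 pairs with annexin A1. S100A4 binds nonmuscle myosin, myeloid-associated differentiation marker (Myadm) is a multispan membrane protein of ordered membrane domains, and galectin-3 (Lgals3) crosslinks glycans on cell surfaces. Genes of this kind are often listed as signatures of effector and tissue-resident T cells.

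In GRCm38 (the mm10 build, GENCODE annotation) 5 of the 10 genes lie on chromosome 3. Lmna is at chr3:88480147-88509956 on the minus strand, and S100a4 (chr3:90603771-90606045) starts 2094 kb beyond its end. S100a6 (chr3:90612882-90624181), S100a11 (chr3:93520488-93526287) and S100a10 (chr3:93555080-93564643) follow, all on the plus strand. The stretch from S100a4 to S100a10 spans 2961 kb and holds 68 protein-coding genes, of which 8 are S100a genes. Anxa1 (chr19:20373428-20390944, minus strand) and Ahnak (chr19:8989284-9076914, plus strand) share chromosome 19, while Anxa2 is at chr9:69453620-69491795, Myadm at chr7:3289080-3300442 and Lgals3 at chr14:47367751-47386160, each on the plus strand. S100a4, Anxa1 and Anxa2 overlap other annotated genes and the libraries do not mark strand. Those neighbours held few reads, with at most 7 counts of Gm16144 at the Anxa2 locus and 0 of Gm42674 and 1500015L24Rik in any library.

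RefSeq promoter windows (GRCm38.p6, 250 bases before to 50 after an annotated start, written in the direction of transcription) were found for 9 of the 10 genes, 13 windows in all, and 5 are shown because they hold AP-1 or TATA letters, AP-1 being a factor family that T cell activation switches on. Capitals mark an AP-1 site written as TGANTCA, which reads the same on both strands apart from its centre, or the TATA box letters TATAAA on either strand.
Lmna, chr3:88503303-88503602, minus strand: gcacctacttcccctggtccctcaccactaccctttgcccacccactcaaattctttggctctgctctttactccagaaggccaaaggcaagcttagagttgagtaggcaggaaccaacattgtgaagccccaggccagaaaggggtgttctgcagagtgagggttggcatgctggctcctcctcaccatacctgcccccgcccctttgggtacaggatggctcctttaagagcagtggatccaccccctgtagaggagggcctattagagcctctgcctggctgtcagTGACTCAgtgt
Anxa1, chr19:20390622-20390921, minus strand: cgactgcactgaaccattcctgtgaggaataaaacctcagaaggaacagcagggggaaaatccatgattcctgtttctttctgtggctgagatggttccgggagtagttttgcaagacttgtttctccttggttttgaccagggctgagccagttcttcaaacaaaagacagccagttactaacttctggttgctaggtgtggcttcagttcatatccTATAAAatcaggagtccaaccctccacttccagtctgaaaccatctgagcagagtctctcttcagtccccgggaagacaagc
Anxa2, chr9:69453433-69453732, plus strand: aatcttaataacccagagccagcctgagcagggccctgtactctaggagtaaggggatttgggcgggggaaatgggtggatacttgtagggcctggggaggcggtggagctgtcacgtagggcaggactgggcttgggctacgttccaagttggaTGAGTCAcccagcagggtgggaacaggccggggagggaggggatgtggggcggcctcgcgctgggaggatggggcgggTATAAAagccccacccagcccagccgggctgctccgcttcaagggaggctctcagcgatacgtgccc
S100a4, chr3:90603520-90603819, plus strand: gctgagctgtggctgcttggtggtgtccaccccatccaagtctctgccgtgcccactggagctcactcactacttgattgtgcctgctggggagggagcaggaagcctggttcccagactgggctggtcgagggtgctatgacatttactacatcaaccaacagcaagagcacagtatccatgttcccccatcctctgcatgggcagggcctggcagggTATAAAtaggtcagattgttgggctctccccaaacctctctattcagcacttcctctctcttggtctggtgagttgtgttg
S100a11, chr3:93520246-93520545, plus strand: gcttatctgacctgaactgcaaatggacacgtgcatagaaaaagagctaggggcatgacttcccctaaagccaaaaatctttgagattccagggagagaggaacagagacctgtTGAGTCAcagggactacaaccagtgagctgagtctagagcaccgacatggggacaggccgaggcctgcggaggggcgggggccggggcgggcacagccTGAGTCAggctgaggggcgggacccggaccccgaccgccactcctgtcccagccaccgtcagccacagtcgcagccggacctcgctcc
An AP-1 match stood in windows of 3 genes, at 40 bases after the start in Lmna, at -95 in Anxa2 and at -136 and -38 in S100a11. Of all 32851 RefSeq windows of this length 7.81% held such a match. TATAAA stood at -32 in Anxa1, at -17 in Anxa2 and at -31 in S100a4, against 13.6% of all windows. GGGCGG, the GC box, occurred in windows of Lmna, Anxa2, S100a11, Ahnak, Myadm and Lgals3, and in 35.7% of all windows. No window of the 13 held the CRE letters TGACGTCA (1.79% of all windows). The NF-kB motif was matched in 2 overlapping Myadm windows alone (0.411% of all windows). The AP-1 and TATA letters do not overlap each other in any window, and a match is a description of letters, not of binding.

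All levels below are CPM scaled by trimmed mean of M values (TMM), and the Treg libraries and whole muscle libraries were scaled separately. In spleen Tregs of WT mice the 10 genes together took 0.0985% to 0.148% of all counts. In spleen Tregs of Tg mice they took 0.293% to 0.329%, and in muscle Tregs 0.423% to 0.49%. Every one of the 10 genes was lower in both WT spleen libraries than in all 4 Tg spleen libraries. For 6 of them, Lmna, Anxa1, S100a4, S100a6, Ahnak and Myadm, all 4 Tg spleen libraries were in turn below all 4 muscle libraries. For Anxa2, S100a10, S100a11 and Lgals3 the Tg spleen and muscle libraries overlapped. The genes were picked for such an order and its share over all genes was not computed, so nothing is read from it.

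**Figure D1:**
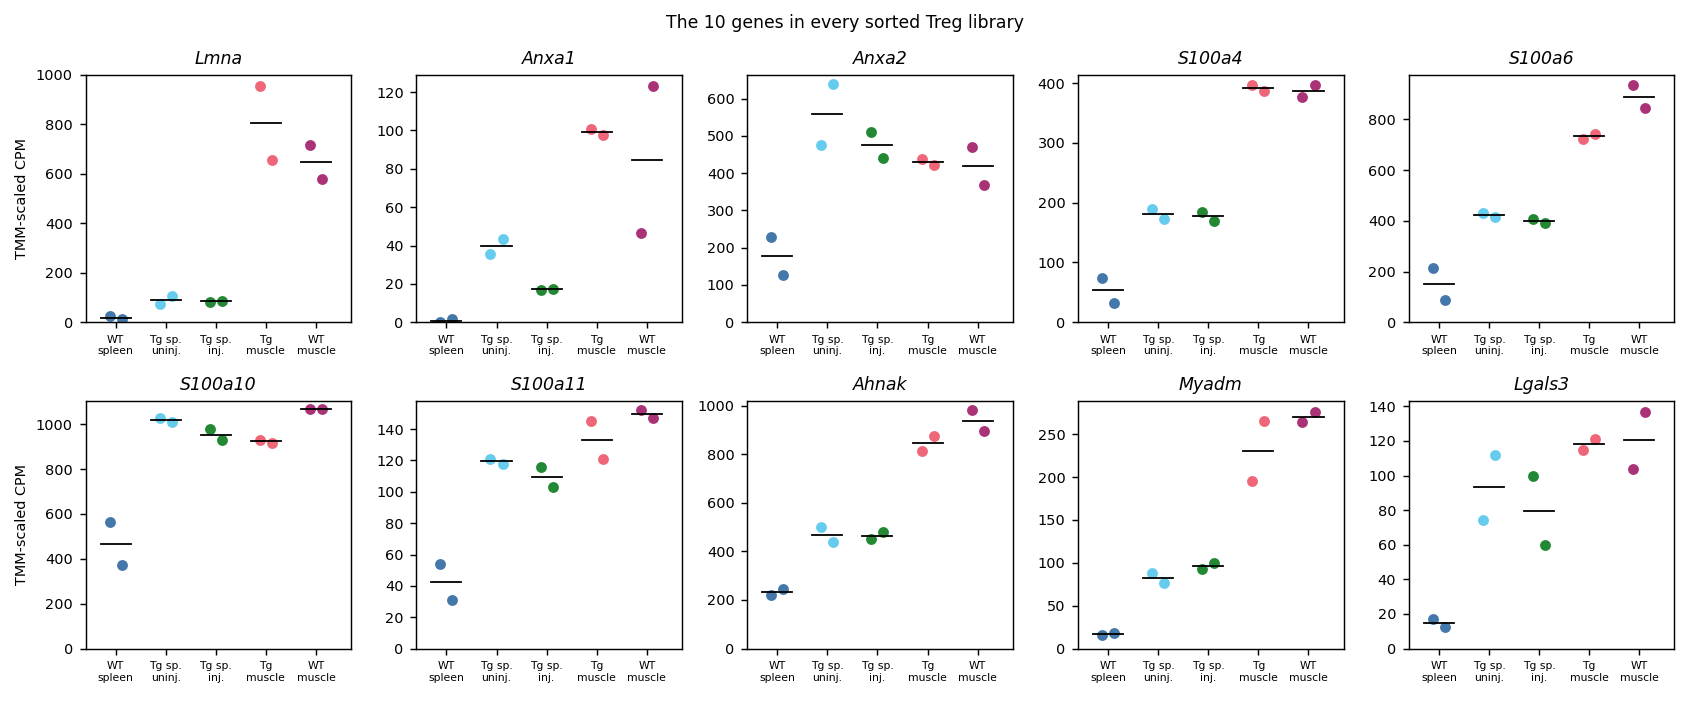
TMM-scaled CPM of each of the 10 genes (vertical axes from 0, 1 panel per gene) in the 10 sorted Treg libraries, 2 points per group with a line at their mean; sp. is spleen, inj. injured and uninj. uninjured. Both WT spleen points lie at the bottom of every panel, and Lmna separates muscle (578 to 954 CPM) from all spleen libraries (at most 106 CPM) most widely.

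Lmna was far higher in muscle than in any spleen group. It was at 26.9 and 11.2 CPM in the WT spleen libraries and at 717 and 578 CPM in the WT muscle libraries. In Tg mice it was at 72.3 and 106 CPM in the uninjured spleen, 82.5 and 87.5 CPM in the injured spleen, and 954 and 655 CPM in muscle. Muscle and spleen libraries did not overlap in either genotype. The fitted difference between WT muscle and WT spleen was 5.20 on the log2 scale (means 648 ± 98.5 and 19.1 ± 11.1 CPM, SD, n = 2). Injured Tg spleen lay 2.27 above WT spleen on the same scale, which is 43.7% of the WT distance from spleen to muscle. Tg muscle lay a further 3.24 above injured Tg spleen.

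Anxa1 had the widest range of all. The WT spleen libraries held 0 and 8 reads of it, which is 0 and 1.69 CPM, whereas WT muscle stood at 46.3 and 123 CPM. Uninjured Tg spleen stood at 35.5 and 43.6 CPM, injured Tg spleen at 17 and 17.3 CPM, and Tg muscle at 101 and 97.4 CPM. The WT muscle libraries therefore disagreed with each other more than the Tg muscle libraries did, and the WT spleen level rests on 8 reads in all. The fitted distance of 6.19 between WT muscle and WT spleen (84.7 ± 54.3 and 0.844 ± 1.19 CPM, n = 2) depends on them. Against a floor of 3 counts in the WT spleen library without a read (1.44 CPM), mean WT muscle was 58.8-fold higher. Mean injured Tg spleen was 11.9-fold higher. The other WT spleen library, at 1.69 CPM, stood above this floor, so the folds are not lower limits.

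Anxa2 and S100a10, whose proteins form a complex, stood in Tg spleen at about their muscle level. Anxa2 was at 228 and 128 CPM in WT spleen, 476 and 639 CPM in uninjured Tg spleen, 511 and 441 CPM in injured Tg spleen, 439 and 422 CPM in Tg muscle and 471 and 368 CPM in WT muscle. S100a10 was at 565 and 371 CPM in WT spleen, 1028 and 1009 CPM in uninjured Tg spleen, 977 and 930 CPM in injured Tg spleen, 931 and 916 CPM in Tg muscle and 1069 and 1067 CPM in WT muscle. Both genes were low in WT spleen alone, and their other 4 groups lay close together. On the log2 scale Anxa2 in injured Tg spleen was 1.43 above WT spleen, more than the 1.25 of WT muscle, a share of 115%. For S100a10 these distances were 1.03 and 1.19, a share of 86.3%. Between Tg muscle and injured Tg spleen the differences were -0.15 for Anxa2 and -0.05 for S100a10, the only 2 of the 10 that were negative.

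Ahnak, the scaffold that binds the annexin A2 complex, had separate levels in Tg spleen and muscle. It was at 221 and 244 CPM in WT spleen, 501 and 438 CPM in uninjured Tg spleen, 451 and 479 CPM in injured Tg spleen, 815 and 874 CPM in Tg muscle and 982 and 896 CPM in WT muscle. Its 3 levels, WT spleen, Tg spleen and muscle, did not overlap. The differences were 2.01 for WT muscle against WT spleen, 1.00 for injured Tg spleen against WT spleen and 0.86 for Tg muscle against injured Tg spleen. Ahnak was also the gene whose WT spleen libraries agreed best, at a ratio of 0.905.

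S100a4, a myosin-binding S100 protein, and S100a6, its neighbour on chromosome 3, also lay at 3 levels. S100a4 was at 74.5 and 32.3 CPM in WT spleen, between 169 and 189 CPM in the 4 Tg spleen libraries and between 377 and 396 CPM in the 4 muscle libraries. S100a6 was at 213 and 86.7 CPM in WT spleen, between 391 and 431 CPM in Tg spleen and between 724 and 935 CPM in muscle. For S100a4 the spread within Tg spleen and within muscle was small beside the gaps, whereas S100a6 varied more within muscle. The WT spleen libraries differed by 2.31 times for S100a4 and 2.45 times for S100a6. Injured Tg spleen reached 61.3% of the WT distance for S100a4 and 55.5% for S100a6. S100a11, the annexin A1 partner, was at 53.8 and 31 CPM in WT spleen, 121 and 118 CPM in uninjured Tg spleen, 116 and 103 CPM in injured Tg spleen, 145 and 121 CPM in Tg muscle and 152 and 147 CPM in WT muscle. Its share was 75.5%, and Tg muscle lay 0.29 above injured Tg spleen on the log2 scale.

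Myadm, the membrane domain protein, was at 15.4 and 18.4 CPM in WT spleen, between 76.2 and 100 CPM in Tg spleen, 195 and 266 CPM in Tg muscle and 264 and 276 CPM in WT muscle. Its 3 levels were separate, 3.98 on the log2 scale from WT spleen to WT muscle and 2.49 to injured Tg spleen. Lgals3 was at 17.3 and 12.7 CPM in WT spleen, 74.4 and 112 CPM in uninjured Tg spleen, 99.9 and 59.7 CPM in injured Tg spleen, 115 and 121 CPM in Tg muscle and 104 and 137 CPM in WT muscle. Tg spleen libraries of Lgals3 spread widely and reached into the muscle range, and the injured Tg spleen stood at 80.4% of the WT distance.

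**Figure D2:**
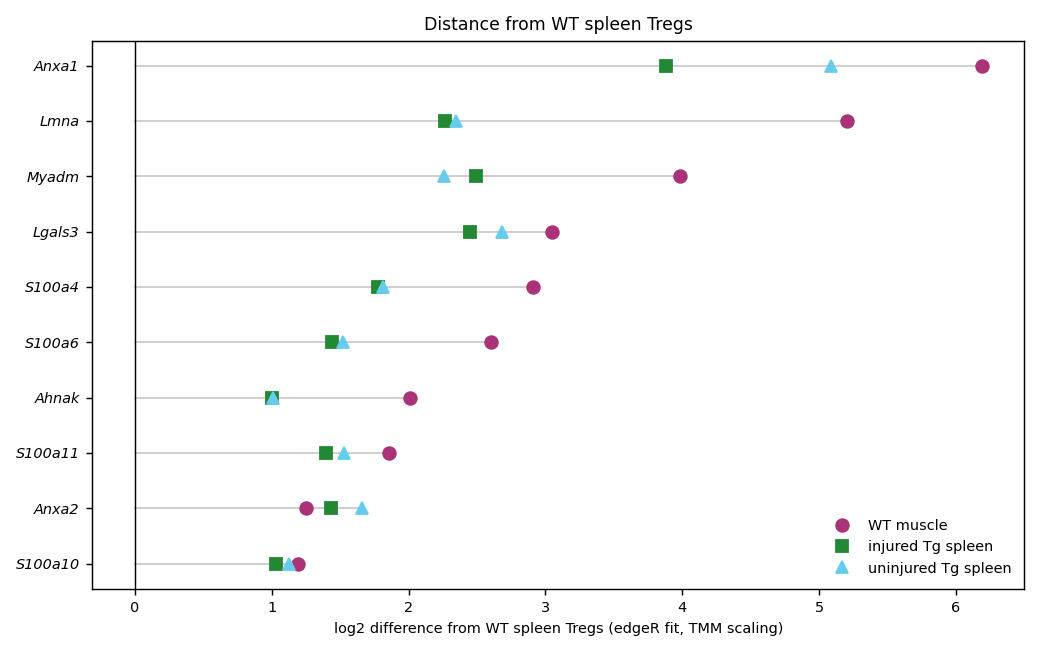
Fitted log2 difference from WT spleen Tregs (horizontal axis) for each of the 10 genes (rows): WT muscle, injured Tg spleen and uninjured Tg spleen, each against the same 2 WT spleen libraries. Both Tg spleen marks lie between 0 and the WT muscle mark for every gene except Anxa2, where they lie beyond it (1.43 and 1.66 against 1.25).

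As a group, the median difference of the 10 genes was 2.75 for WT muscle against WT spleen, 1.61 for injured Tg against WT spleen and 0.87 for Tg muscle against injured Tg spleen. The medians over all 13188 genes tested were -0.04, 0.00 and -0.04. In the first 2 of these comparisons the libraries of the 2 groups did not overlap for any of the 10 genes, in the higher direction each time. That separation was seen for 26.3% and 21.8% of all genes, and since the genes were chosen on these comparisons nothing is read from it. Between Tg muscle and injured Tg spleen 8 of the 10 were higher and 1 lower without overlap, against 25.4% and 27.8% of all genes. Comparisons against WT spleen share its 2 libraries, and the floor and its folds for Anxa1 cover counting error only. WT spleen replicate 1 was above replicate 2 for 7 of the 10 genes, by 1.37 to 2.45 times. Without WT spleen replicate 1 the differences of WT muscle from WT spleen became 5.86 for Lmna, 3.59 for S100a4 and 3.36 for S100a6, and those of injured Tg spleen from WT spleen became 2.92, 2.45 and 2.20. Without replicate 2 these differences of Lmna became 4.60 and 1.66, and that of Anxa1 had only the library with no read left to set it. WT spleen replicate 2 also carried B cell transcripts, with a B cell marker sum of 1871 CPM against 76.4 to 168 CPM in the other spleen libraries, and their part in the result was not tested.

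Scaled per kilobase of annotated exon, so that genes can be set beside each other, S100a10 had the highest level of the 10 in each of the 5 Treg groups and Anxa1 the lowest. In WT muscle S100a10 stood at 881 ± 1.43 CPM per kb, S100a4 at 662 ± 22.2 and S100a6 at 651 ± 46.5 (SD, n = 2), the latter pair within their spread. S100a11 followed at 293 ± 7.25, then Anxa2 at 112 ± 19.4 and Lmna at 111 ± 16.9, which did not differ beyond their spread. Lgals3 (64.8 ± 12.4), Myadm (60.3 ± 1.85), Ahnak (47.1 ± 3.04) and Anxa1 (29.1 ± 18.7) closed the order. On this scale Lmna went from the second-lowest level in WT spleen (3.26 ± 1.91 CPM per kb) to a place beside Anxa2 in WT muscle.

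The first comparison that did not choose the genes was Tg against WT Tregs within injured muscle, which asks whether muscle Tregs of both genotypes carry the same levels. None of the 10 genes passed the test in edgeR (adjusted p under 0.05 over 13188 genes), none had an unadjusted p under 0.05, and DESeq2 called none. Of all genes 0.318% passed, 0.121% higher and 0.197% lower. The differences ran from -0.28 for S100a6 to 0.31 for Lmna on the log2 scale, with 4 positive and 6 negative and a median of -0.09. Lmna was at 805 ± 211 CPM in Tg and 648 ± 98.5 CPM in WT muscle (log2 difference 0.31 ± 0.32 SE, edgeR adjusted p = 0.863). S100a6 was at 734 ± 13.6 and 890 ± 63.5 CPM (-0.28 ± 0.32, edgeR adjusted p = 0.884). S100a6, S100a10, S100a11 and Ahnak had both Tg libraries below both WT libraries, which was the case for 17.8% of all genes. A p that misses the threshold does not show equal levels. The Anxa1 difference of 0.22 depended on both WT muscle libraries, and was -0.32 without replicate 1 and 1.10 without replicate 2.

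The second such comparison was injured against uninjured Tg spleen, which asks whether muscle injury moved the genes in splenic Tregs of the transgenic mice. No gene of the 10 and no gene at all passed the test in edgeR (0% of 13188 genes, 236 with an unadjusted p under 0.05), and DESeq2 also called 0 genes. The 10 differences ran from -1.21 to 0.23, and 9 of them were negative. Anxa1 had the largest: 17.1 ± 0.194 CPM in injured against 39.5 ± 5.74 CPM in uninjured Tg spleen, a log2 difference of -1.21 ± 0.45 SE with an unadjusted p of 0.0234 and an adjusted p of 1 in edgeR. Both injured libraries were below both uninjured ones for 4 of the 10 genes, Anxa1, S100a6, S100a10 and S100a11, and for 15.6% of all genes. Myadm, 1 of the 10, was higher without overlap, but the share of all genes in that direction is not given, so nothing is read from it. With no filter on low counts the adjusted p of Anxa1 was 0.0382 (range over the alternatives 0.0382 to 1), and without any 1 of the 4 libraries its difference stayed between -1.36 and -1.05. The other 9 genes lay within 0.23 of 0, Myadm being the positive one at 0.23 ± 0.18. In uninjured as in injured Tg spleen, every library was above both WT spleen libraries for all 10 genes. That contrast was used to choose the genes, so it is a description and does not bear on injury.

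The third was Tg against WT whole muscle 8 days after injury. In bulk tissue fewer cells of a type and less RNA per cell cannot be told apart, and Tregs are a small part of the RNA: Foxp3 had 0 reads in 4 of the 6 libraries. None of the 10 genes passed the test in edgeR, against 0.0323% of 12377 genes (0.0323% higher, 0% lower), none had an unadjusted p under 0.05, and DESeq2 called none. The differences ran from -0.24 for S100a11 to 0.81 for Lgals3, and 8 of 10 were positive. Lgals3 was at 32, 127 and 76.8 CPM in the WT libraries and at 125, 167 and 123 CPM in the Tg libraries. The groups overlapped through WT replicate 2, and the log2 difference was 0.81 ± 0.53 SE (means 78.7 ± 47.7 and 138 ± 24.8 CPM, edgeR adjusted p = 0.994). Anxa1 was at 43.3, 112 and 44 CPM in WT and at 98.2, 88.3 and 85.8 CPM in Tg muscle. WT replicate 2 was here the highest of all 6 libraries, and without it the difference of 0.45 ± 0.37 (edgeR adjusted p = 0.994) became 1.05 with an adjusted p of 0.0198 (range over the alternatives 0.0198 to 1).

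In whole muscle, macrophage marker sums separated the genotypes and fibroblast marker sums overlapped. The summed level of 12 macrophage and monocyte markers was 589, 1484 and 1140 CPM in WT and 1838, 1696 and 1504 CPM in Tg libraries, with 12 of 12 markers positive and 0 past the test. The sum of 6 fibroblast markers was 2362, 4595 and 4020 CPM in WT and 5805, 4450 and 4117 CPM in Tg libraries, with 6 of 6 positive and 0 past the test. WT replicate 1 was lowest in both sums, as it was for Lgals3. Their part in the result was not tested.

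**Figure D3:**
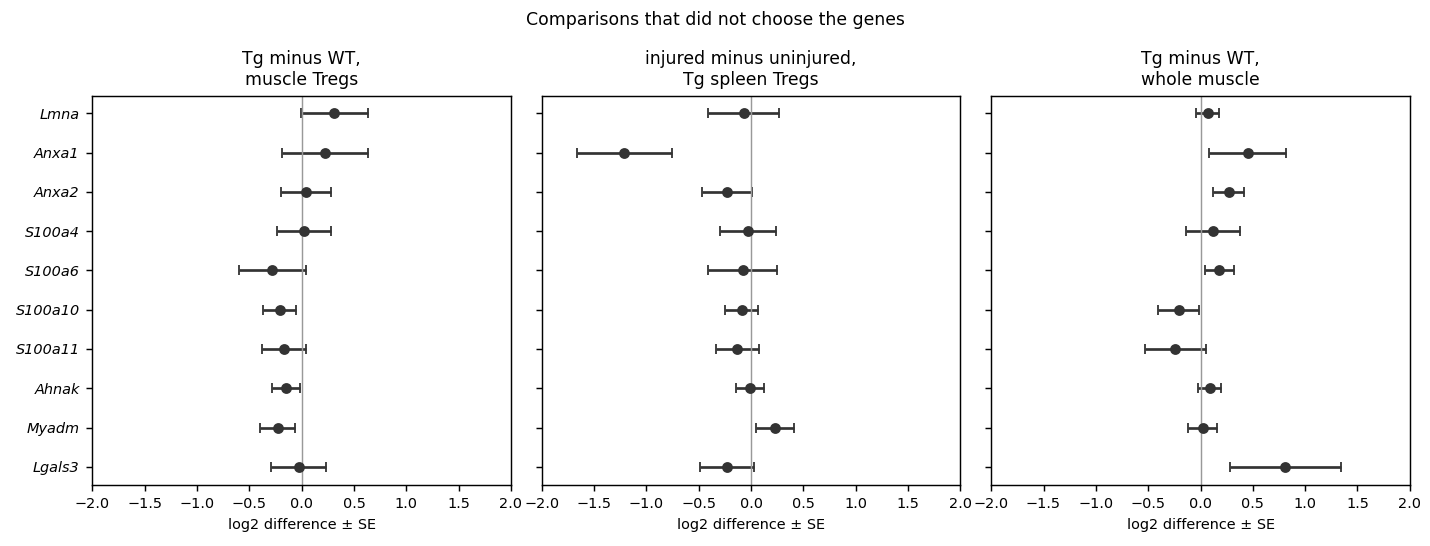
Log2 difference with its SE from edgeR (horizontal axis) for each of the 10 genes (rows) in the 3 comparisons that were not used to choose them. No gene passed at an adjusted p under 0.05, and Anxa1 in Tg spleen (-1.21 ± 0.45) and Lgals3 in whole muscle (0.81 ± 0.53) lie farthest from 0.

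**Figure D4:**
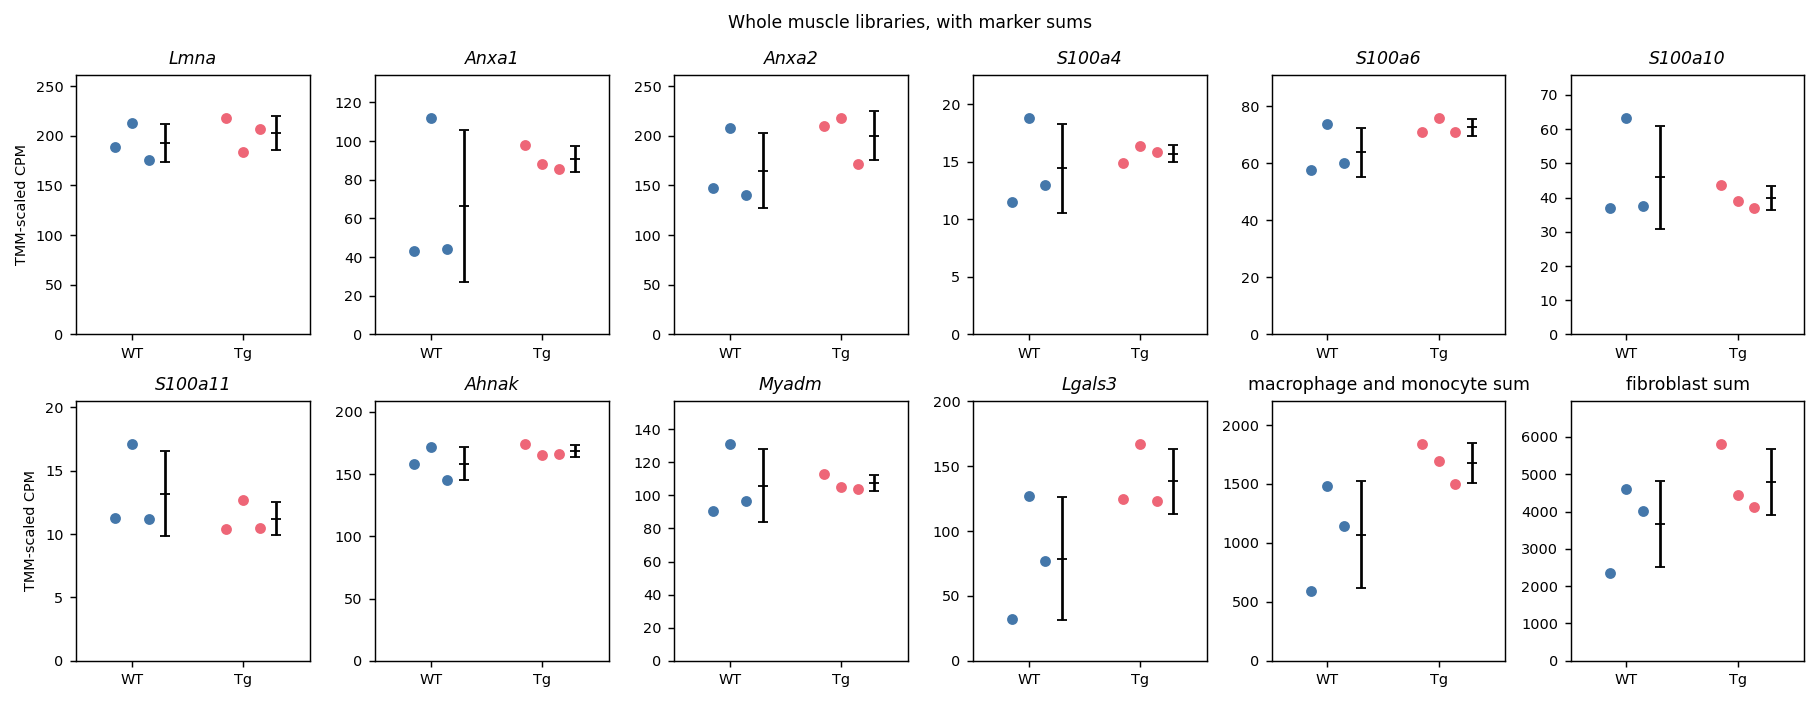
TMM-scaled CPM (vertical axes from 0) of the 10 genes and of the macrophage and fibroblast marker sums in the 3 WT and 3 Tg whole muscle libraries, with the mean and SD beside the points. The groups overlap in each of the 10 gene panels, and the macrophage sums do not overlap (589 to 1484 CPM in WT, 1504 to 1838 CPM in Tg).

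Whole muscle also held the genes in another proportion. Anxa2 exceeded S100a10 there by 3.28 to 5.58 times, whereas in Tregs it was at 0.345 to 0.633 of the S100a10 level, both in CPM without regard to gene length. Lmna (176 to 218 CPM) and Ahnak (145 to 174 CPM) varied little among the 6 whole muscle libraries, which come from 1 tissue. The Treg groups span muscle and spleen, the contrast that chose the genes, so their wider range is not set against this. Within the muscle Treg libraries Lmna ran from 578 to 954 CPM and Ahnak from 815 to 982 CPM.

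Markers of other cells were also set beside the Treg results. The macrophage and monocyte sum was higher in muscle Tregs (1396 to 2072 CPM) than in WT spleen Tregs (174 to 265 CPM), but Ccr2, a chemokine receptor that Tregs can express, made up 1366 to 2032 CPM of it. Without Ccr2 the sum was 22.8 to 50.9 CPM in muscle Tregs, below the 80.8 to 195 CPM of spleen Tregs. In Tg muscle C1qa and C1qc, which define macrophages, had 0 reads. Of the full list of 12 markers 11 could be tested in edgeR at an adjusted p under 0.05. In WT muscle 2 were higher, Ccr2 and 1 other, and 2 lower than in WT spleen. In Tg muscle 1 was higher and 5 lower than in injured Tg spleen. In the spleen the sum without Ccr2 was 169 to 195 CPM in injured Tg against 93.5 to 113 CPM in WT libraries, with C1qa at 12.2 to 14.6 CPM against 0.481 to 4.43 CPM. In uninjured Tg spleen that sum was 178 and 80.8 CPM, on both sides of the WT libraries. Between injured Tg and WT spleen 10 of the 11 tested markers were positive and 1 passed (median log2 difference 1.64). The part of these markers in the levels of the 10 genes was not tested. Fibroblast markers summed to at most 8.97 CPM in any Treg library. Of 12 genes induced by tissue dissociation, 10 were higher in muscle than in spleen Tregs in each genotype, and their sum was 9129 to 12193 CPM in muscle against 1583 to 2187 CPM in spleen. That difference goes with the tissue comparison of the 10 genes, and its part in the result was not tested. In the spleen comparison the sums of injured Tg (1583 to 2187 CPM) and WT libraries (1844 to 2071 CPM) overlapped, and their part in that result was not tested either. The sum of 8 neutrophil markers was 143 to 343 CPM in muscle Tregs and 4.43 to 58 CPM in spleen Tregs, and both of its 2 testable markers were higher in WT muscle and neither in Tg muscle at an adjusted p under 0.05 in edgeR. Mmp9, a secreted protease, made up 140 to 322 CPM of it in muscle. The rise in WT muscle was not confined to Mmp9, since the other testable marker passed too (median log2 difference of the 2 4.58). In Tg muscle both were positive without passing (median 2.53). S100a8, a defining neutrophil gene, had 0 reads in muscle Tregs, and S100a9 had at most 0.226 CPM there. The part of these markers in the tissue result was not tested. The remaining lists were low or alike across Treg libraries: CD8 T cell sums were 11.5 to 28.8 CPM, dendritic 11.3 to 20.2, NK and ILC 0 to 6.73, endothelial 166 to 271, muscle fibre 2.69 to 9.92, satellite cell 0 to 1.58, erythroid 0 to 7.4 and platelet 0.256 to 4.64 CPM. Among these, 1 dendritic marker was called higher and 1 erythroid marker lower in WT muscle.

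Genes related to the 10 by family or function were taken from 8 lists, 118 genes of which 85 could be tested in Tregs, and they were tested in every comparison. These lists were also drawn up with earlier results of these data known, so their counts are not independent evidence of a direction. Between WT muscle and WT spleen, 47 of the 85 were higher and 2 lower at an adjusted p under 0.05 in edgeR, against 9.38% and 6.87% of all genes. Their median difference was 0.61, against -0.04 over all genes. The count of higher genes was 29 without WT spleen replicate 2. With scaling by library totals alone, the median over all genes shifted to -0.235 and the calls over all genes went from 1237 higher and 906 lower to 838 higher and 1383 lower. In that scaling all 10 members were still above WT spleen.

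The actin and cortical cytoskeleton list had the highest count, with 25 of 30 genes higher and 0 lower. Vim, the intermediate filament vimentin, rose from 703 ± 226 to 3266 ± 603 CPM (log2 difference 2.22 ± 0.20 SE, edgeR adjusted p = 1.33e-05). Vcl, the focal adhesion protein vinculin, Capg, a filament capping protein, and Tagln2, an actin binder, rose by 1.71, 1.68 and 1.62. Coro1a (0.28) and Myh9 (0.39), abundant cortical proteins of T cells, did not pass. Cd44, the hyaluronan receptor, was the only 1 of 4 tested receptors and ligands that passed, from 168 ± 20.2 to 719 ± 123 CPM (2.10 ± 0.16, edgeR adjusted p = 5.68e-07).

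Among the other annexins 4 of 6 tested were higher: Anxa4 by 2.03 (20.4 ± 7.03 to 86 ± 3.99 CPM, edgeR adjusted p = 6.66e-05), Anxa6 by 0.93, Anxa5 by 0.62 and Anxa7 by 0.54. Anxa11 (0.47) and Anxa9 (-2.01) did not pass. Only 3 other S100 genes could be tested, and S100a13, at 111 ± 7.27 against 52.8 ± 11.7 CPM, passed (1.09, edgeR adjusted p = 0.00204). Of 6 galectins Lgals1 (1.74) and Lgals9 (0.89) were higher.

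The nuclear envelope list split. Of 17 genes 5 were higher, with Syne2 (1.29), a nesprin that ties the nucleus to actin, and Zmpste24 (0.89), the protease that matures prelamin A, the leading examples, and Sun2, a nesprin anchor of the inner nuclear membrane, was lower by -0.68 ± 0.20 (edgeR adjusted p = 0.0297). Lmnb1, a B-type lamin, had a large difference of 1.77 ± 0.51 that did not pass (edgeR adjusted p = 0.0603). Of 12 membrane repair and ESCRT genes 6 were higher, led by Ehd4 (2.5), Ehd1 (2.01) and Capn2 (1.47), the former pair being membrane-remodelling ATPases and the last a calpain. Cavin1, a caveolar coat protein, was lower at levels of 0.613 ± 0.867 and 8.66 ± 4.77 CPM (edgeR adjusted p = 0.0498). The count of lower related genes was 0 or 1 whenever a library was left out. Of 7 genes of MARVEL domain proteins, the family of Myadm, Cmtm7 (1.80), Plp2 (1.53) and Cmtm6 (0.43) were higher.

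In Tg mice the tissue comparison called 13 related genes higher and 1 lower, against 4.83% and 2.55% of all genes. Of the 13, 12 were also among the 47 called in WT mice, which is 92.3% of the Tg calls and 25.5% of the WT calls, and Syne3 was the exception. Ehd1 (1.83 ± 0.18, edgeR adjusted p = 1.15e-05), Cd44 (1.43), Anxa4 (1.22), Vim (1.17), Capg (1.16) and Plp2 (1.14) were higher, and Sun2 was lower again (-0.80). The count of higher genes was 6 without injured Tg spleen replicate 1 and 21 or 22 without WT muscle replicate 1 or 2. By library totals the split over all genes went from 637 higher and 336 lower to 435 higher and 684 lower, with a median of -0.236. Anxa2 and S100a10 stayed negative and the other 8 members positive under that scaling.

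Between injured Tg and WT spleen, 7 related genes were higher and 0 lower, against 0.887% and 0.417% of all genes. Cd44 rose from 168 ± 20.2 to 380 ± 53.7 CPM (1.18 ± 0.15, edgeR adjusted p = 0.00124), Ehd4 by 1.69, Lgals1 by 1.12, Vim by 0.88, Tagln2 by 0.73, Crip1 by 0.72 and Anxa6 by 0.56. Actb (0.07) and Coro1a (0.01), the most abundant uncalled cytoskeletal genes, did not pass. The count rests on single libraries: it was 1 without WT spleen replicate 2 or without injured Tg spleen replicate 2, 2 without injured Tg spleen replicate 1, and 4 and 3 without replicate 1 or 2 of uninjured Tg spleen, which enter through the shared estimate of spread.

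The difference between the tissue effects of the 2 genotypes was negative for all 10 members, from -1.15 to -3.66, a description given that the genes were chosen on these contrasts. None of the 85 related genes passed the test of that difference in edgeR (0.136% of all genes passed), although 28 were lower and 2 higher at an unadjusted p under 0.05. DESeq2 called 5 lower, Ehd4, Flna, Lcp1, Tagln2 and Vim, with Ehd4 at -2.04 (DESeq2 adjusted p = 0.00401). Within muscle 0 of 85 related genes differed between Tg and WT in edgeR, with 3 higher and 7 lower at an unadjusted p under 0.05 and 0 called by DESeq2. In injured against uninjured Tg spleen the count was also 0 of 85, with 0 higher and 1 lower at an unadjusted p under 0.05, and DESeq2 called 0. In whole muscle 0 of 95 passed, with 6 higher and 0 lower at an unadjusted p under 0.05 and 0 called by DESeq2.

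**Figure D5:**
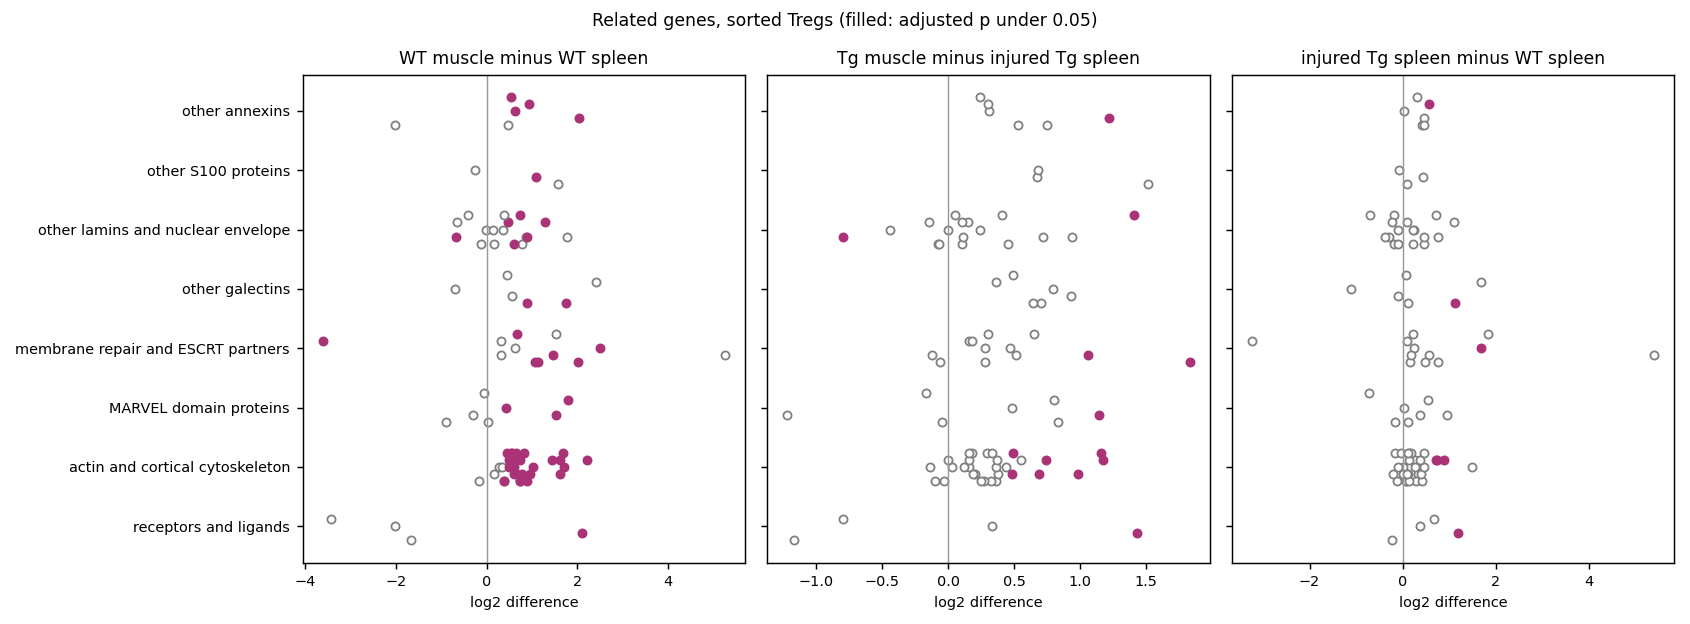
Log2 difference (horizontal axis, each panel with its own range) of each tested gene of the 8 related lists (rows) in 3 comparisons of sorted Tregs; filled points passed at an adjusted p under 0.05 in edgeR, open points did not, and the vertical offset within a row is for legibility. Filled points lie to the right of 0 in most rows, 25 of 30 in the cytoskeletal row of the first panel, and thin out to 7 in the third panel.

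The 10 genes resembled each other in profile. Over the 10 Treg libraries the Pearson correlation of log2 CPM between pairs of members ran from 0.59 to 0.99 with a median of 0.90 over 45 pairs, and in the 6 whole muscle libraries from 0.16 to 0.95 with a median of 0.71. The genes were picked for a shared pattern over the Treg groups, so high values there were set in advance. The points also share library and group, so these values describe and do not test. S100a4 was closest to the mean standardised profile of the members (r = 0.983) and Anxa2 farthest (r = 0.832). Each member is itself part of that mean. Among the 5 genes outside the set with the most similar profile were Trpv2 (r = 0.99), a cation channel, Anxa6 (0.985), Lgals1 (0.982) and Runx3 (0.978), a T cell transcription factor. Runx3 was at 32.8 CPM on average in WT spleen, 83.6 and 82.8 CPM in uninjured and injured Tg spleen, 139 CPM in Tg muscle and 137 CPM in WT muscle.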

How the data were processed

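Gene counts of 16 libraries, 10 of sorted Tregs and 6 of whole muscle, were used as the authors deposited them. The submitters' processing notes list STAR 2.5.4, featureCounts and the mm10 build. No source used here gives the counting settings or annotation. The transposon-based libraries do not mark strand.

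The Treg and whole muscle libraries were fitted separately with edgeR 4.0.16 (R 4.3.3, quasi-likelihood test, trimmed mean of M values scaling, low-count filter, Benjamini-Hochberg adjustment over 13188 and 12377 genes, 5 and 4 residual degrees of freedom), with all groups of a fit sharing the estimate of spread. DESeq2 1.42.0 was an alternative, along with other scalings, no filter, a replicate block, the compared groups alone and each library left out. The script was tested on simulated data. Libraries of a group differed by more than counting noise, so none was treated as a repeat deposit of another, which does not show that they came from separate animals.

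The members and lists were chosen with earlier results of these data known. Likeness is the Pearson correlation of log2(CPM + 0.5) with the members' mean standardised profile. Beyond the 10 members, the text names per list and comparison up to 4 called genes with the largest difference and up to 2 uncalled genes with the highest level, and the genes among the 5 most alike, apart from items that are not reported here. The 5 genes that DESeq2 called for the difference of tissue effects, and the marker genes, were named after their values were seen.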

Additional observations from a re-analysis of the deposited data

How the results depend on the processing

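Differences of the 10 genes kept their sign under every alternative in the comparisons that chose them. The genes were picked on these differences, so this is a description and not independent support. Genes called in the main fits numbered 42 for Tg against WT muscle Tregs, 0 for injured against uninjured Tg spleen, 2143 for the WT tissue comparison, 973 for the Tg one, 172 for injured Tg against WT spleen, 18 for the difference of tissue effects and 4 in whole muscle. With no low-count filter they were 195, 5 (1 of them a member, lower), 372 for the spleen comparison, 140 for the difference and 11 in whole muscle; related genes were then 2 lower in muscle Tregs, 21 higher in the Tg tissue comparison, 11 higher in the spleen comparison and 8 lower for the difference. DESeq2 called 96 genes in muscle Tregs, 296 in the spleen comparison and 64 for the difference, with 20 related genes higher in the Tg tissue comparison and 5 lower for the difference. With the compared groups alone, fewer libraries set the spread: 10 genes in muscle Tregs, 1046 in the WT tissue comparison (related 29 higher, 1 lower), 338 in the spleen comparison (related 1 lower) and 4 for the difference, with 22 related genes higher and 0 lower in the Tg tissue comparison. This was not run for whole muscle, whose fit holds only its own groups. Replicate numbers did not pair the libraries (correlations of same-numbered deviations -0.04 to 0.09 over 20 Treg pairs and -0.03 to 0.00 over 3 whole muscle pairs). The replicate block gave 1 related gene lower in the WT tissue comparison and 2 genes in whole muscle.

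Leaving out each library in turn, which leaves an arm with 1 library assumed to vary like the others, gave 25 to 361 genes in muscle Tregs (related 0 to 1 higher, 0 to 2 lower), 887 to 2768 in the WT tissue comparison (related 29 to 49 higher, 0 to 1 lower), 452 to 1466 in the Tg one (6 to 22 higher, 0 to 1 lower), 57 to 331 in the spleen comparison (1 to 8 higher), 3 to 241 for the difference (0 to 5 lower) and 3 to 4 in whole muscle, with 0 to 1 member higher. Where these counts moved, the cause was not tested. With 2 libraries per Treg group, small differences may be missed.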

Other observations

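The CPM ratio of Anxa2 to S100a10, a pair singled out after its values were seen, was higher in Tg than in WT libraries. This held in muscle Tregs, in spleen Tregs and in whole muscle. In muscle Tregs it was 0.471 and 0.461 in Tg and 0.44 and 0.345 in WT libraries. In spleen Tregs it was 0.463 to 0.633 in the 4 Tg libraries and 0.403 and 0.345 in WT. In whole muscle it was 4.79, 5.58 and 4.66 in Tg and 3.98, 3.28 and 3.73 in WT libraries (5.01 ± 0.497 and 3.66 ± 0.355, SD, n = 3, log2 difference 0.45). No test is given, since the pair was chosen for this separation. Of 45 pairs of the 10 genes, 2 separated the genotypes in the same direction in all 3 of these sets. The other was S100a4 to S100a11. The pair Lmna to Anxa1 could not be judged in spleen Tregs, since WT spleen replicate 1 held 0 reads of Anxa1. Tg against WT spleen also served to choose the genes, so the spleen part is a description.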
